A study of Mus musculus with 3 samples.

Results

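*Alox5* encodes 5-lipoxygenase, the enzyme that opens leukotriene synthesis. It was represented by 1 cDNA clone of 975 on the arrays, AI850497, and was found by taking every spot that carries this identifier, which gave 6 replicate spots of 5862. The identifier is listed as a synonym of *Alox5* in RefSeq genes of mouse assembly GRCm38.p6. The gene was chosen because its values on these same arrays lay apart, so the values that follow are a description of that choice and were not tested.

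The cells came from bronchoalveolar lavage, and the series title names them lung macrophages. Their RNA was measured on 2-colour spotted arrays. The silica mice received 1 mg of crystalline silica, the TiO2 mice 500 µg of titanium dioxide and the saline mice saline alone, each in 30 µl given intranasally at 6 weeks of age, and all were lavaged at 14 weeks, 8 weeks later. Each of these 3 groups had 1 array, on which lavage RNA was hybridised, after amplification, together with a purchased pool of RNA from mouse (Universal Mouse Reference RNA). The 2 particle doses were not matched. Not given in the sources used here are strain, sex and the number of mice behind each lavage. Crystalline silica is a mineral dust that scars the lung, and TiO2 is a dust of low toxicity to which it is often compared.

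5-Lipoxygenase is an iron-containing dioxygenase that acts on arachidonic acid at the nuclear membrane. Cytosolic phospholipase A2 (*Pla2g4a*) releases the arachidonic acid, and the 5-lipoxygenase activating protein (*Alox5ap*) presents it to the enzyme, which forms leukotriene A4. Leukotriene A4 hydrolase (*Lta4h*) turns this intermediate into leukotriene B4, a strong attractant of neutrophils, and leukotriene C4 synthase (*Ltc4s*) starts the path to the cysteinyl leukotrienes, which contract airways and make vessels leaky. Macrophages, neutrophils, mast cells and eosinophils are known sources of these lipids.

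The deposited values were read as log2 ratios between the lavage RNA and the reference pool, and which of the 2 is the numerator is not given. "Above" and "below" therefore refer to the deposited ratio. If the lavage RNA is the numerator, a lower ratio means less *Alox5* RNA in the lavage cells relative to the pool, and if it is the denominator, a lower ratio means more. The sizes of the differences are the same under both readings. With 1 array per group there was no replicate check and no p-value. The SD over spots measures how well 1 array repeats itself and holds nothing of the spread between mice. A lavage holds several cell types, and fewer cells of a type and less RNA per cell cannot be told apart. The cell type itself could not be checked, because 0 of the 46 genes listed as markers of macrophages, neutrophils, lymphocytes, epithelium and red cells were among the 16 clones that could be given a gene name.

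In the centred values, the *Alox5* ratio was lower on the TiO2 array than on either other array, and the silica and saline arrays lay close together. These sizes depended on the processing. Under the alternatives described below, silica minus saline ran from -1.42 to -0.15. TiO2 minus saline ran from -3.55 to -0.86, and silica minus TiO2 from 0.80 to 2.13. After each array was centred on its median over the 662 clones with a value on all 3 arrays, the 6 silica spots read -1.26, -1.23, -1.21, -1.12, -1.06 and -1.04. The 6 TiO2 spots read -2.56, -2.55, -2.53, -2.49, -2.46 and -2.46. The 6 saline spots read -1.05, -1.04, -0.99, -0.94, -0.93 and -0.84. Every TiO2 spot was thus below every silica spot and every saline spot. Such separation was common among the 565 clones with every spot measured on all 3 arrays. Spots did not overlap in 52.0% of them between silica and TiO2, and in 80.2% between TiO2 and saline. Only the highest silica spot, at -1.04, reached into the low end of the saline spots. The spots are listed in ascending order within an array, so a spot of one array has no partner on another.

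**Figure D1:**
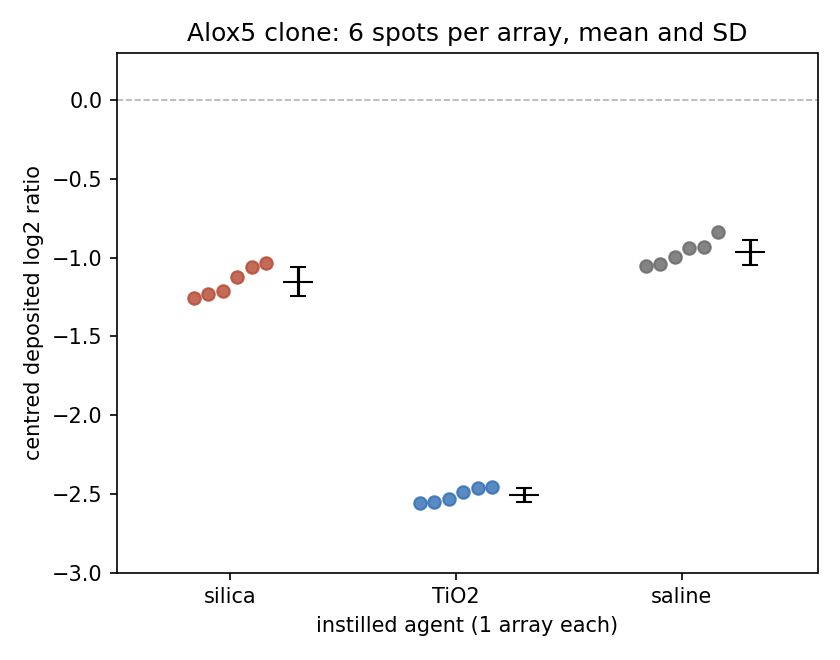
Centred deposited log2 ratio (vertical axis) of the 6 spots of the *Alox5* clone on the silica, TiO2 and saline arrays, with the mean and SD over spots in black beside them and a dashed line at the median of each array. The TiO2 spots sit between -2.56 and -2.46, below all silica spots (-1.26 to -1.04) and all saline spots (-1.05 to -0.84). Of the 565 clones with every spot measured, 52.0% had no overlap of spots between silica and TiO2, and 80.2% had none between TiO2 and saline.

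The mean centred ratio of *Alox5* was -1.15 ± 0.093 with silica, -2.51 ± 0.046 with TiO2 and -0.97 ± 0.081 with saline (SD, n = 6 spots each). These ratios lay 2.22-fold, 5.69-fold and 1.95-fold below the median clone of the silica, TiO2 and saline arrays. The silica and saline means are neighbours whose centred spots overlap slightly, and the TiO2 mean is separated from both. That overlap depended on the centring, since the deposited silica and saline spots were 0.17 apart at their nearest. Among the 565 clones that had all their spots measured on all 3 arrays, 445 had an SD over spots no larger than that of *Alox5* on silica, 269 on TiO2 and 302 on saline. The SD had a median of 0.057 for silica, 0.048 for TiO2 and 0.072 for saline, so the spots of *Alox5* scattered about as much as those of a middling clone on TiO2 and saline and more on silica.

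*Alox5* was in the low part of the ratios on every array, and further down on TiO2. Counted from the lowest of 662 clones, it stood at place 52 with silica, place 13 with TiO2 and place 64 with saline. Ranks do not depend on the centring or the scale of an array. Among all clones measured on the array in question it was at place 61 of 887 on silica, 13 of 842 on TiO2 and 64 of 662 on saline. The deviation of *Alox5* from the median clone thus had the same sign on all 3 arrays.

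**Figure D2:**
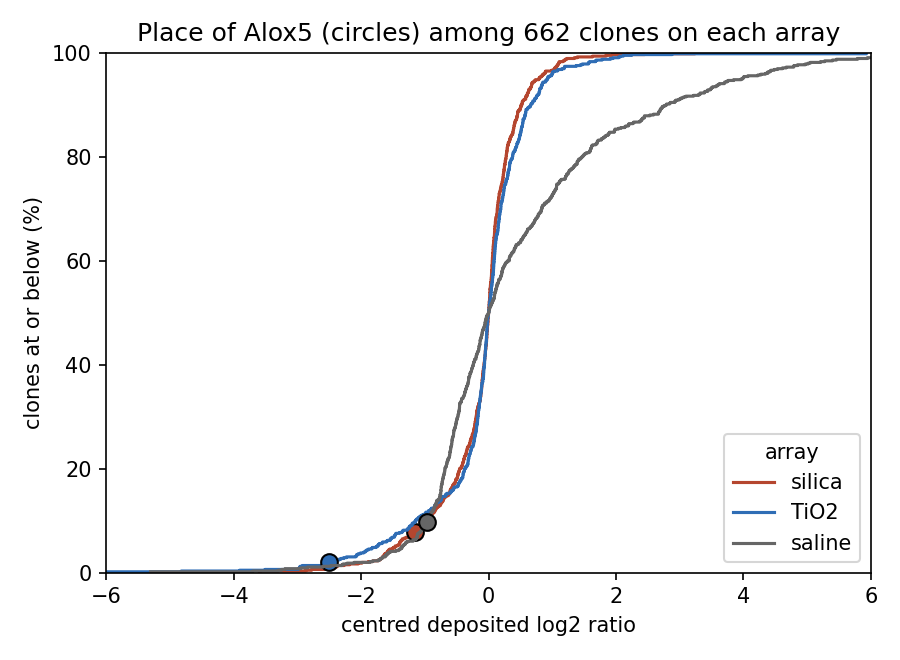
Share of the 662 clones at or below a given centred log2 ratio, as a percent (vertical axis), on the silica, TiO2 and saline arrays. The circles mark *Alox5*, at 7.85% on silica, 1.96% on TiO2 and 9.67% on saline. The horizontal axis is drawn from -6 to 6, which leaves out 6 saline clones above it and 1 TiO2 clone below it.

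The first comparison sets silica against saline. The *Alox5* ratio was -1.15 on silica and -0.97 on saline. The difference was -0.19 (SE over spots 0.050), or 1.14-fold. The centred spots of the 2 arrays overlapped by 0.018 on the log2 scale, while the deposited values without centring were 0.17 apart at their nearest. Of the 662 clones, 543, *Alox5* included, differed by at least as much as *Alox5*, and the median absolute difference was 0.60. Of all clones, 30.4% differed by 2-fold or more here, and 77.0% of the 565 clones with every spot measured had no overlap of spots. When all arrays were brought to one scale, which stretches the silica ratios and shrinks the saline ones, the *Alox5* difference became -1.42 and its place by size was 126th of 662, against 543rd as centred. With a trend of span 0.4 taken out it was 401st, with span 0.2 437th and with span 0.7 351st. The difference was -0.37 on the deposited values without centring and -0.32 with the arrays centred on the 565 clones.

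The second comparison sets TiO2 against saline. The *Alox5* ratio was -2.51 on TiO2 and -0.97 on saline. The difference was -1.54 (SE over spots 0.038), or 2.91-fold, and the nearest spots of the 2 arrays were 1.40 apart. Large differences were common between these arrays. Of the 662 clones, 31.0% were at least 2-fold apart, 185 of them (27.9%) with TiO2 below saline, as for *Alox5*, and 20 with TiO2 above. After quantile normalization these counts became 61 below and 62 above, and with a lowess trend on the mean ratio taken out they became 36 below and 50 above. Spots that did not overlap were also common, at 80.2% of the 565 clones with every spot measured. *Alox5* had the 108th lowest difference of the 662 clones and the 37th lowest of the 565.

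The size of the TiO2 difference from saline depended on how the arrays were put on one footing. Over all clones the difference changed with the mean ratio, and at the mean ratio of *Alox5* this trend stood at -0.68. With the trend removed, the *Alox5* difference was -0.86, under 2-fold. On one scale for all arrays it was -3.55. The curve is thinly supported there, since *Alox5* had the 25th lowest mean ratio of 662. The saline array was also spread more widely than the other 2: the median absolute deviation of centred ratios was 0.24 on silica, 0.25 on TiO2 and 0.72 on saline. Values were present for 87.7% of spots on silica, 81.7% on TiO2 and 63.4% on saline. All 6 *Alox5* spots were measured on each.

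The third comparison sets silica against TiO2, the 2 arrays with a like median absolute deviation. Their extremes were not alike, since centred ratios ran from -3.60 to 3.24 on silica and from -6.40 to 5.93 on TiO2. The *Alox5* ratio was -1.15 on silica and -2.51 on TiO2. The difference was 1.36 (SE over spots 0.042), or 2.56-fold. The lowest silica spot was 1.20 above the highest TiO2 spot. The median absolute difference over the 662 clones was 0.17, and *Alox5* was 19th by size. Among the same 662 clones it was 77th under quantile normalization and 53rd with the trend removed. Of the 662, 5.89% differed by 2-fold or more, with silica above TiO2 in 27 (4.08%) and below it in 12. That split became 36 above and 44 below under quantile normalization, 46 and 56 with all arrays on one scale, 20 and 19 after removal of the trend, and 38 and 90 over the 834 clones measured on these 2 arrays. Spots did not overlap in 52.0% of the 565 clones with every spot measured, and *Alox5* had the 12th highest difference of these. The trend with the ratio stood at 0.50 at the mean ratio of *Alox5*, the 19th lowest of 662, and the difference was 0.86 with it removed. With all arrays on one scale, which stretches the ratios of both, it was 2.13. Among the 834 clones, which are more numerous and centred anew, *Alox5* was 81st by size. The silica dose was 1 mg and the TiO2 dose 500 µg, so the size of this difference is not one at a matched dose.

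**Figure D3:**
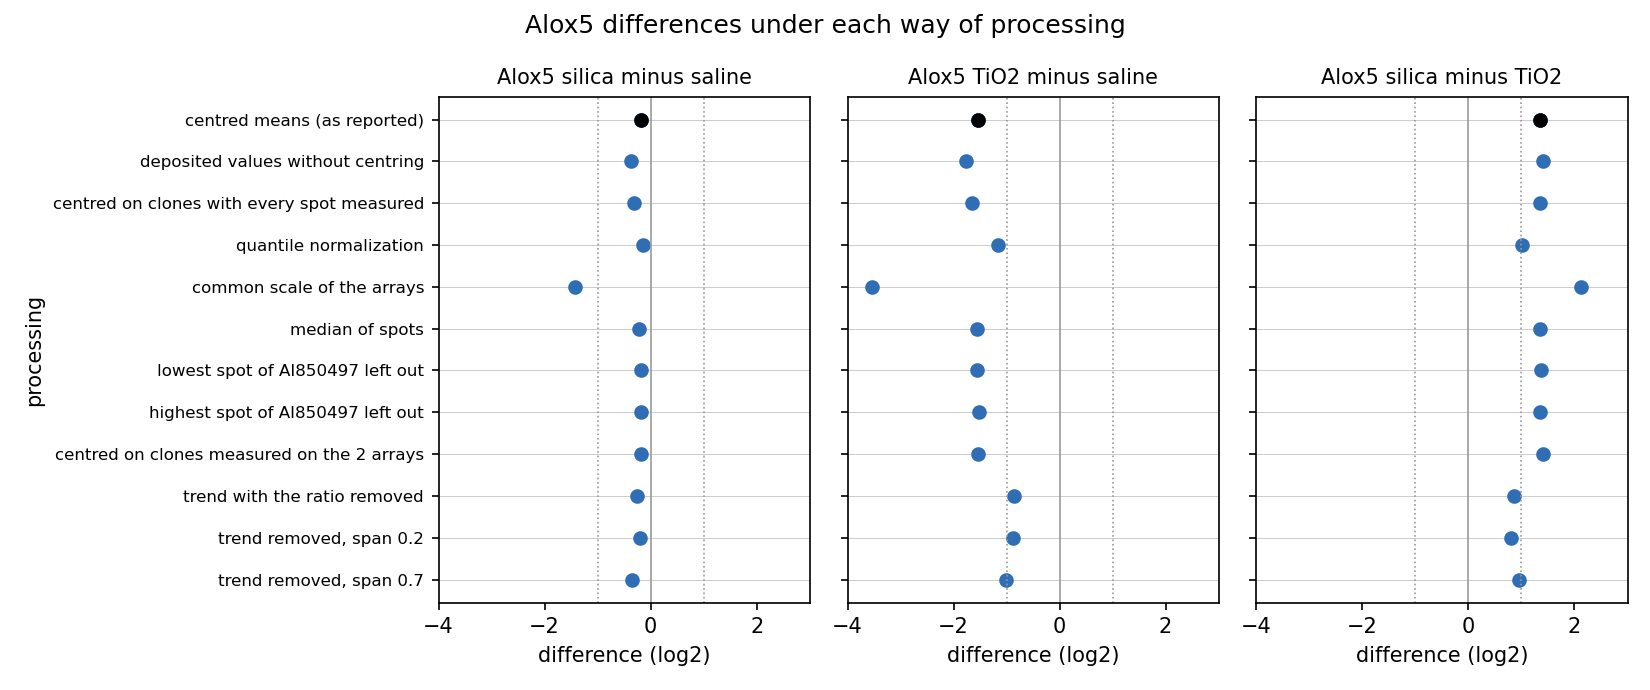
Difference of *Alox5* (horizontal axes, log2) for silica minus saline, TiO2 minus saline and silica minus TiO2 under each way of processing (rows), with the reported values in black, a solid line at 0 and dotted lines at a 2-fold difference. Every value keeps the sign of the reported one, silica minus saline from -1.42 to -0.15, TiO2 minus saline from -3.55 to -0.86 and silica minus TiO2 from 0.80 to 2.13.

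Likeness to *Alox5* was measured over the 3 arrays among the 564 other clones with every spot measured, as the Euclidean distance between the sets of 3 centred ratios. By level, the nearest clone was AI847923 at a distance of 0.26, where the median clone was at 2.86. Its ratio was -0.94 ± 0.052 on silica, -2.58 ± 0.037 on TiO2 and -0.84 ± 0.028 on saline (SD, n = 6 spots each). The next was AI850749 at 0.46, with -1.32 on silica, -2.53 on TiO2 and -1.40 on saline. By shape alone, with each clone first centred on its own mean, the nearest was AI836978 at 0.14, where the median clone was at 1.29. It had the same spacing at a lower level, with -3.58 on silica, -4.82 on TiO2 and -3.20 on saline. This likeness in shape depended on the scale: AI836978 was 146th under quantile normalization and 137th with all arrays on one scale. The next was AI850544 at 0.16, with -0.19 on silica, -1.48 on TiO2 and -0.15 on saline. Neither the files nor the gene table pair these clones with a gene. Only 3 values define each pattern, and the clones share the arrays, so each likeness is a description.

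The nearest clone with a gene name was *Mbnl2*, which encodes a regulator of splicing. It was 15th by level and 53rd by shape, so it was no close neighbour. Its ratio was low on all 3 arrays, at -1.64 ± 0.068 on silica, -1.89 ± 0.048 on TiO2 and -1.29 ± 0.031 on saline (SD, n = 6 spots each), without the wide step between the particle arrays. Silica minus TiO2 was 1.36 for *Alox5*, against 0.25 for *Mbnl2*, and the sign of the *Mbnl2* difference turned with the processing: it was -0.16 under quantile normalization and -0.22 with the trend removed.

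**Figure D4:**
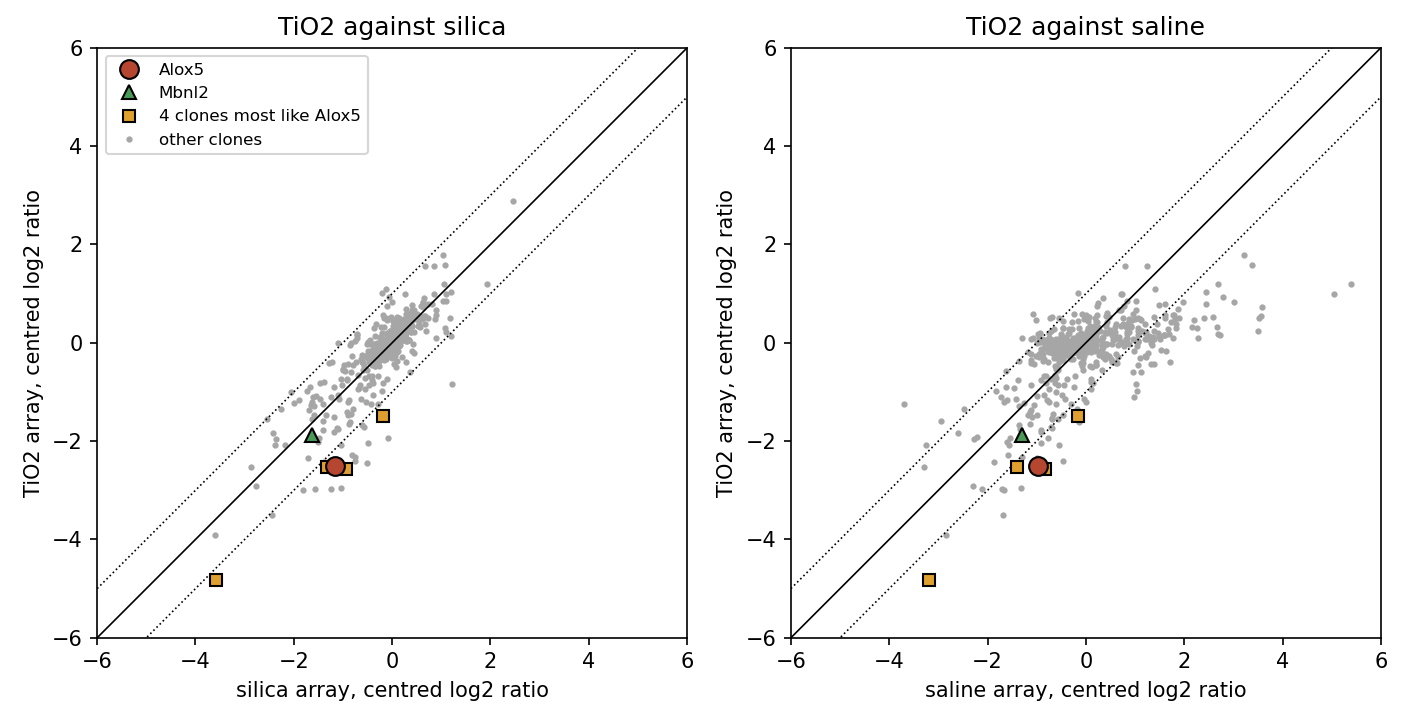
Centred log2 ratios of the 565 clones with every spot measured, TiO2 array (vertical axes) against the silica array (left) and the saline array (right). The solid line marks equal ratios and the dotted lines a 2-fold difference. *Alox5* is the circle, the 4 unnamed clones most like it by level or shape are squares and *Mbnl2* is the triangle; *Alox5* lies beyond the lower dotted line in both panels, 1.36 below its silica ratio and 1.54 below its saline ratio.

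Of the other 10 named genes with a value on all 3 arrays, 0 reached a 2-fold difference between the particle arrays, where 5.89% of all clones did, so a count of 0 among 10 is near that share. Between each particle array and saline 1 of the 10 did (*Arhgap35*, which encodes a GTPase-activating protein), where 30.4% of all clones did for silica and 31.0% for TiO2. For silica minus TiO2, the differences of the 10 ran from -0.18 for *S1pr1*, which encodes a receptor for sphingosine 1-phosphate, to 0.25 for *Mbnl2*. On the TiO2 array 0 of the 10 were below *Alox5*, where 12 of all 662 clones were. On the silica array 1 was (*Mbnl2*), where 51 of the 662 were. On the saline array 2 were (*Mbnl2* and the cell cycle inhibitor gene *Cdkn1b*), where 63 of the 662 were.

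Other steps of the leukotriene pathway could not be set beside *Alox5*. A list of 40 genes was drawn up, with phospholipases, *Alox5ap*, *Lta4h*, *Ltc4s*, other lipoxygenases, cyclooxygenases and prostaglandin synthases, and the receptors for leukotriene B4 and the cysteinyl leukotrienes. Of these 40, 0 were among the 16 clones with a gene name, and further members may lie among the 959 unnamed clones. The values of *Alox5* thus stand without those of its activating protein or of the enzymes after it.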

How the data were processed

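The deposited values, 1 for each spot of an array, were taken as log2 ratios between the channels. Base 2 was inferred, since the values end just below the log2 of a 16-bit range. Not given in the sources used here are scanner, background correction, normalization, centring and numerator. Samples were grouped by title. Spots of a clone were averaged on each array and each array was centred by subtracting its median over 662 clones: 0.086 (silica), 0.044 (TiO2) and 0.27 (saline). Column medians before that were 0.13, 0.12 and 0.16. All pairs of arrays correlated above 0 across clones, which are not independent (r = 0.47 to 0.78), and were taken to share one orientation. Of 975 clones, 16 matched 1 RefSeq gene, and 959 are unnamed. For 1 matched gene no value is reported here. No coordinates are printed, since the values come with no genome build. No test was made. The SE of a difference combines the SDs of both sets of spots. The number of arrays limits the precision. The gene and lists were chosen with earlier results of these data known. Named genes were *Alox5*, pathway members on the array, the 2 clones nearest by level and by shape, the nearest named clone, and the other named clones as a summary. Alternatives are given in the closing section. Trends were fitted with lowess (span 0.4, statsmodels 0.14.6) in Python 3.11.15. The averaging of spots, the centring and the differences were tested on simulated data without missing spots. Trend removal, quantile normalization and the step to one scale were not tested in this way.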

Additional observations from a re-analysis of the deposited data

How the results depend on the processing

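The sign of the *Alox5* difference stayed the same in 11 of 11 alternatives for each comparison. Some could hardly move it, such as leaving out its lowest or highest spot. Centring on the clones measured on the 2 arrays could not move either saline comparison, since it used the same 662 clones. The settings with spans 0.4, 0.2 and 0.7 are variants of a single method. The 11 are therefore not independent checks. Silica minus saline (-0.19) was -0.37 without centring, -0.32 centred on clones with every spot measured and -1.42 on one scale. After removal of a trend with span 0.4, 0.2 and 0.7 it was -0.25, -0.20 and -0.35. TiO2 minus saline (-1.54) was -1.77 without centring, -1.66 centred on clones with every spot measured, -1.16 under quantile normalization, -3.55 on one scale, and -0.86, -0.88 and -1.01 after removal of a trend with span 0.4, 0.2 and 0.7. Silica minus TiO2 (1.36) was 1.01 under quantile normalization, 2.13 on one scale, and 0.86, 0.80 and 0.95 after trend removal with these spans. The ratio on silica was -1.96 on one scale. That on TiO2 was -2.20 under quantile normalization and -4.08 on one scale. That on saline was -0.70 without centring, -0.81 centred on clones with every spot measured, -1.05 under quantile normalization and -0.54 on one scale. Spans 0.2 and 0.7 and the alternatives for ranks, likeness and *Mbnl2* were chosen after seeing the data.

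Counts of clones 2-fold apart moved by over 1.5 times as follows. For silica and saline, 201 became 342 at 1.5-fold, 123 at 3-fold, 90 after trend removal and 113 among clones with every spot measured. For TiO2 and saline, 205 became 353 at 1.5-fold, 108 at 3-fold, 123 after quantile normalization, 86 without the trend and 120 among clones with every spot measured. For silica and TiO2, 39 became 106 at 1.5-fold, 10 at 3-fold, 80 under quantile normalization, 102 on one scale and 128 over clones measured on these 2 arrays. One scale widens the particle arrays, and thresholds move counts by construction. Where every spot was measured, 20.0% of clones were 2-fold apart between silica and saline, against 30.4% of all, and 21.2% between TiO2 and saline, against 31.0%. The cause of these and the remaining shifts was not tested. By size of the silica minus TiO2 difference *Alox5* was 19th, and between 18th and 81st under the alternatives. By size of the silica minus saline difference it was 543rd, and between 126th and 560th, and by that of TiO2 minus saline 110th, and between 16th and 112th. AI836978, nearest by shape, was 146th under quantile normalization and 137th on one scale. No paired analysis was possible because the groups hold a single array apiece, which also prevents leaving one out.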
